A study of Oryctolagus cuniculus with 4 samples.

Results

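The p53 pathway was described through a list of 9 genes, namely the p53 inhibitors MDM2 and MDM4 and the damage-responsive targets CDKN1A, GADD45A, BTG2, SESN1, SESN2, ZMAT3 and PHLDA3. They were picked by symbol from a table of 13913 rabbit genes. 8 of the 9 were found, MDM2 was not analysed here, and 7 passed the filter on low values (a mean of at least 1 ppm, parts per 1000000 of a library total), SESN2 being the exception. The libraries were single-cell RNA-seq libraries of ventral epidermis and dermis from rabbit ear hypertrophic scar (HS), all from female rabbits labelled WT, without a strain or an age in the labels. 2 libraries came from untreated scar (HS group) and 2 from scar that had received drug-loaded microneedles (MNs) weekly for 3 weeks (drug-loaded MNs group). The MN tips stay in the skin and release a derivative of 5-fluorouracil, a drug that disturbs thymidylate supply and is built into RNA and DNA. Tissue was taken a week after the last patch, and no library of drug-free MNs was analysed here, so the needles and the drug cannot be told apart. The scar was a surgical wound model on the ventral ear.

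The transcription factor p53 is kept low in unstressed cells because MDM2 marks it for degradation and MDM4 (also called MDMX) masks its activating domain. DNA damage and stress on ribosome production, both of which fluoropyrimidines can cause in dividing cells, release p53 from these inhibitors. p53 then switches on genes that halt the cell cycle (CDKN1A, BTG2), assist repair (GADD45A), restrain growth signals (SESN1, SESN2, PHLDA3) or stabilise such transcripts (ZMAT3). Several of these genes, CDKN1A and BTG2 above all, also answer to differentiation, serum and tissue dissociation, so their level in skin is not a readout of p53 alone.

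All values below are relative expression in ppm, the share of a library's total, and fold changes are differences of log2(value + 1), drug-loaded MNs minus HS. The table holds 1 value per gene and library, so fewer cells of a type and less RNA per cell cannot be told apart. The depth was unknown, because the deposited values had a common total. The 4 libraries were alike across the 9348 tested genes, with Spearman's rho between 0.956 and 0.97. Mitochondrial genes took 2.75% to 2.8% of the total in HS and 4.37% to 4.58% in drug-loaded MNs, and the part of this share in the results was not tested. The labelled tissue was checked by its markers. KRT10 (24607 to 45325 ppm) and COL1A2 (12946 to 26648) were high in every library. Over all tested genes the log2 fold change had a median of 0.12, which was -0.011 under median ratio scaling, so small rises of single genes are to be read against that shift.

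None of the 7 tested genes of the p53 list passed the threshold in limma over all genes. The count was 0 of 7 at an adjusted p of 0.05, where 0.0428% of all tested genes passed. At an unadjusted p under 0.05 it was also 0 of 7, against 7.26% of all genes higher and 1.39% lower. No other tool was run on these values. The groups did not overlap in 3 of 7 genes. MDM4 and SESN1 were higher in both drug-loaded MNs libraries, where 26.6% of all genes were higher without overlap, and CDKN1A was lower in both, where 11.2% were. These shares followed the scaling. Under median ratio scaling 18.4% of all genes were higher without overlap and 20.5% lower, and MDM4 overlapped. Under quantile normalization MDM4 and CDKN1A overlapped and only SESN1 of the 7 did not. The median log2 fold change of the 7 genes was 0.05, with 4 above and 3 below 0.

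**Figure D1:**
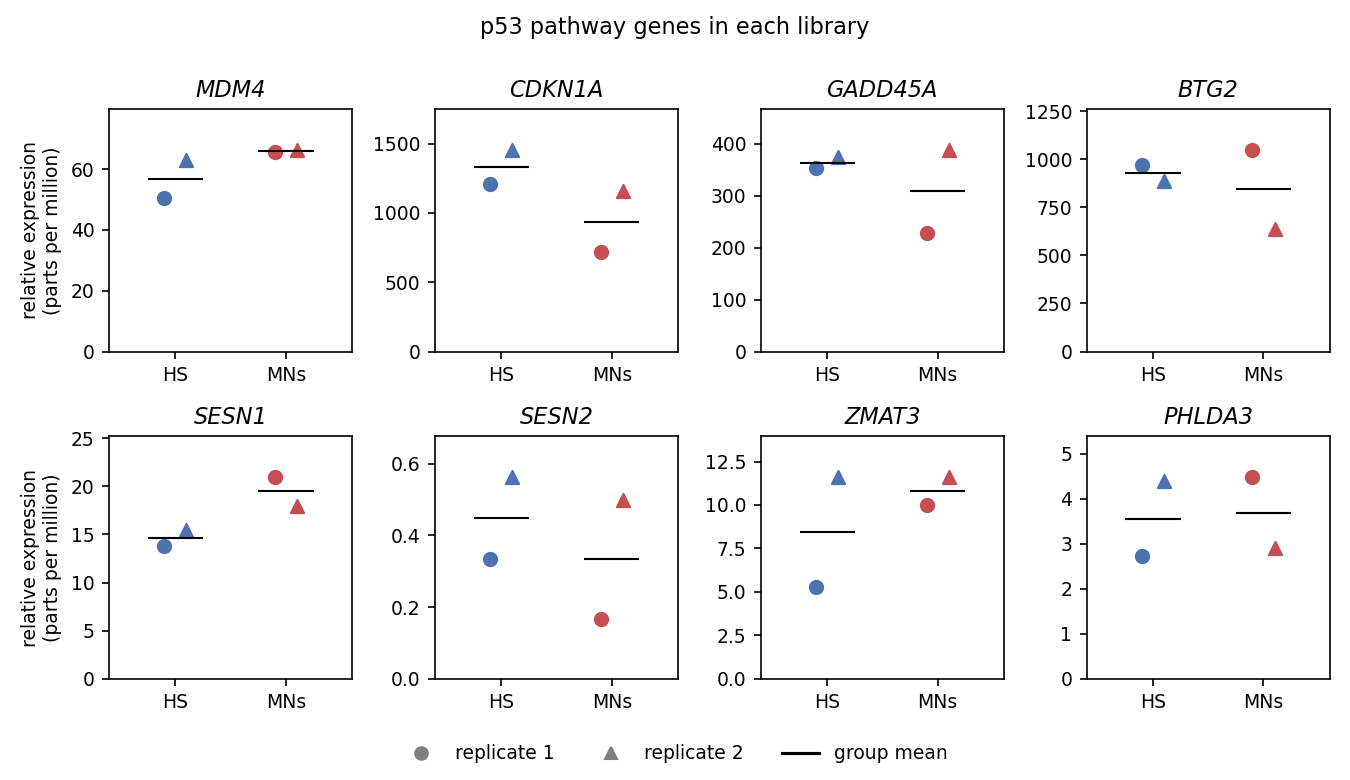
Relative expression (ppm of the library total, linear axes starting at 0) of the 8 p53 pathway genes in the 2 HS and 2 drug-loaded MNs (MNs) libraries. Circles are replicate 1, triangles replicate 2 and bars group means; CDKN1A lies lower, and MDM4 and SESN1 higher, in both drug-loaded MNs libraries, while the other genes overlap.

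MDM4, the inhibitor that covers the activating domain of p53, had nearly the same level in both treated libraries. It stood at 50.6 and 62.8 ppm in the HS libraries and at 65.6 and 66.4 in the drug-loaded MNs libraries. Both treated libraries were above both untreated ones, but HS replicate 2 lay closer to them than to HS replicate 1. The group means were 56.7 ± 8.67 and 66.04 ± 0.55 (SD, n = 2 per group), a log2 fold change of 0.22 (95% interval -0.31 to 0.76, adjusted p 0.861 in limma). Without HS replicate 1 it was 0.07, so a large part of the difference rested on that library.

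CDKN1A, which encodes the cyclin-dependent kinase inhibitor p21 and is the best known arrest gene of p53, was lower after treatment in these libraries. Its level was 1205 and 1458 ppm in HS against 715 and 1156 in drug-loaded MNs. The groups did not overlap, although the higher treated library lay close to the lower untreated one. The means were 1332 ± 178 and 935 ± 312 (SD, n = 2 per group), so the treated mean was 0.702 of the untreated mean. The log2 fold change of -0.54 was lower than that of all but 2.96% of tested genes, yet it did not pass (95% interval -1.22 to 0.13, adjusted p 0.702 in limma). The size of the difference was set by drug-loaded MNs replicate 1. Without that library it was -0.20, without drug-loaded MNs replicate 2 it was -0.89, and it stayed below 0 in all 14 alternatives. The unadjusted p was 0.1005 in limma. The interval of the main fit included 0 and ended at 0.13 on the log2 scale, a limit that rests on 2 libraries per group.

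GADD45A, a stress gene whose product binds PCNA and activates a stress kinase cascade, stood at 353 and 374 ppm in HS and at 228 and 389 in drug-loaded MNs. The HS libraries were close to each other, and 1 treated library lay below them while the other lay above. The log2 fold change was -0.29 (95% interval -0.96 to 0.38, adjusted p 0.856 in limma). Without drug-loaded MNs replicate 1 it turned to 0.10. Within a library, where the scaling cancels, the log2 ratio of CDKN1A to GADD45A was 1.77 and 1.96 in HS against 1.65 and 1.57 in drug-loaded MNs. This ratio, chosen after the values were seen, was lower in both treated libraries, with a mean difference of -0.26 and a pooled SD of 0.10. No test was run on this ratio.

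BTG2, an antiproliferative gene whose protein recruits the CCR4-NOT deadenylase to shorten the poly(A) tails of mRNAs, was spread in the opposite order. It stood at 969 and 889 ppm in HS and at 1050.1 and 637 in drug-loaded MNs. Drug-loaded MNs replicate 1 was thus the highest of the 4 libraries for BTG2 and the lowest for CDKN1A and GADD45A. The log2 fold change of BTG2 was -0.18 (95% interval -0.85 to 0.48, adjusted p 0.911 in limma), and it was 0.18 without drug-loaded MNs replicate 2. In the treated group the higher library exceeded the lower by 1.62 times for CDKN1A, 1.71 times for GADD45A and 1.65 times for BTG2, while in HS these ratios were 1.21, 1.06 and 1.09. For these 3 genes the treated libraries thus differed more from each other than the untreated ones did, which with 2 libraries per group is a description without a test.

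**Figure D2:**
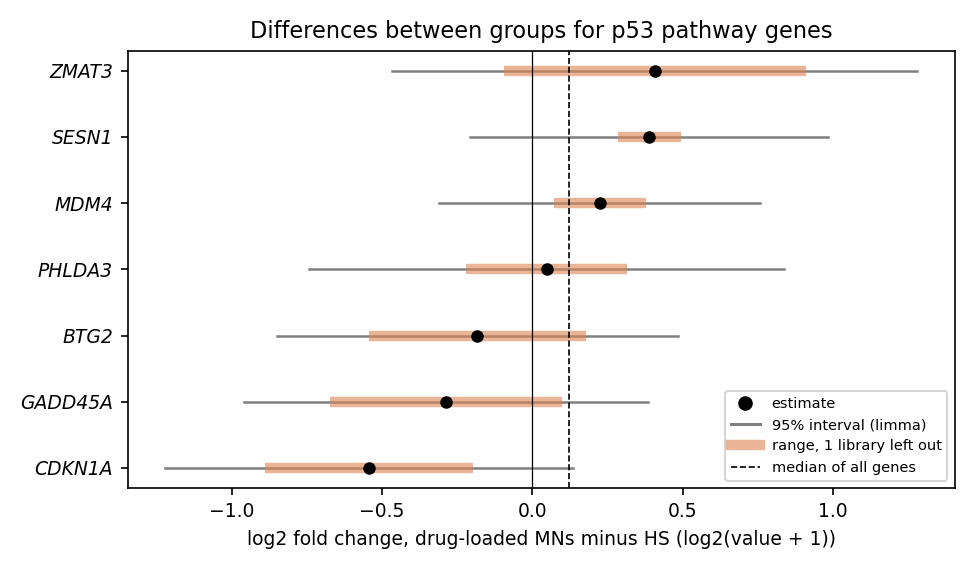
Log2 fold change (x axis, drug-loaded MNs minus HS, on log2(value + 1)) of the 7 tested p53 pathway genes. Points are estimates, thin lines 95% intervals from limma, thick bars the range with 1 library left out and the dashed line the median of all genes (0.12); every interval includes 0, and the thick bars of CDKN1A, MDM4 and SESN1 stay on 1 side of 0.

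The sestrins are stress proteins that hold back the growth kinase mTORC1 through the GATOR complexes, and SESN1 and SESN2 are p53 targets. SESN1 stood at 13.8 and 15.4 ppm in HS and at 20.991 and 18.0001 in drug-loaded MNs, so both treated libraries were above both untreated ones. The means were 14.6 ± 1.15 and 19.5 ± 2.11 (SD, n = 2 per group), with a log2 fold change of 0.39 (95% interval -0.21 to 0.99, adjusted p 0.762 in limma). With 1 library left out it ranged from 0.28 to 0.50, the narrowest range of the 7 genes. With median ratios it was 0.25 and with quantile normalization 0.21.

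SESN2, the sestrin that senses leucine, was near the bottom of the table. It stood at 0.334 and 0.563 ppm in HS and at 0.168 and 0.4999 in drug-loaded MNs, under the filter, and the groups overlapped. The log2 ratio of SESN1 to SESN2 within a library was 5.37 and 4.78 in HS against 6.97 and 5.17 in drug-loaded MNs. The groups overlapped in it too, and the mean difference of 0.997 was close to the pooled SD of 0.946.

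SESN3, the sestrin that answers to FOXO factors rather than mainly to p53, had the largest log2 fold change of the 3 sestrins. It stood at 30.1 and 42.8 ppm in HS and at 68.3 and 62.2 in drug-loaded MNs. The groups did not overlap, and the means were 36.4 ± 8.98 and 65.2 ± 4.3 (SD, n = 2 per group). The log2 fold change was 0.84 (SE 0.26, adjusted p 0.404 in limma, unadjusted p 0.012), and it stayed above 0 in all 14 alternatives, from 0.60 to 1.09 with 1 library left out. Of the GATOR genes on which sestrins act, 3 of 8 were analysed and 0 passed. MIOS, a subunit of the sestrin-binding GATOR2, stood at 48.1 and 60.2 ppm in HS and at 61.2 and 68.8 in drug-loaded MNs, without overlap. Its complex partner WDR59 (5.44 and 14.2 ppm in HS, 12.3 and 14.7 in drug-loaded MNs) and the GATOR1 gene NPRL2 (26.3 and 18.03 ppm in HS, 21.2 and 19.9 in drug-loaded MNs) overlapped.

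ZMAT3 encodes an RNA-binding zinc finger protein that acts on splicing and RNA stability downstream of p53. It stood at 5.27 and 11.6 ppm in HS and at 10.001 and 11.6 in drug-loaded MNs. HS replicate 1 lay low and the other libraries lay together. The log2 fold change of 0.41 (95% interval -0.47 to 1.28, adjusted p 0.839 in limma) was -0.10 without HS replicate 1 and 0.91 without HS replicate 2, where the unadjusted p was 0.0272 (adjusted p 0.297 in limma).

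PHLDA3, whose protein occupies membrane lipids and so restrains growth signals, stood at 2.72 and 4.39 ppm in HS and at 4.49 and 2.90 in drug-loaded MNs. The groups overlapped fully, and the log2 fold change was 0.05 (95% interval -0.74 to 0.84, adjusted p 0.98 in limma). Its sign turned with median ratios (-0.06) and quantile normalization (-0.24).

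Genes that act upstream of p53 were described from a list of 23, of which 14 were tested. 0 of 14 passed at an adjusted p of 0.05 and 0 at an unadjusted p under 0.05. The groups did not overlap in 4, with 2 higher (ATM and ATR, the kinases that signal DNA breaks and stalled replication) and 2 lower (RPL11 and DAXX), where 26.6% of all genes were higher and 11.2% lower. ATM stood at 16.5 and 29.6 ppm in HS and at 33.04 and 30.7 in drug-loaded MNs, with a log2 fold change of 0.51 (adjusted p 0.747 in limma) that was 0.10 without HS replicate 1. RPL5 and RPL11 encode ribosomal proteins that bind MDM2 when ribosome assembly is disturbed. RPL5 stood at 1999 and 1470.1 ppm in HS and at 1508 and 1212 in drug-loaded MNs, with overlap. RPL11 stood at 8253 and 7146 ppm in HS and at 6381 and 6700.4 in drug-loaded MNs, with a log2 fold change of -0.23 (adjusted p 0.877 in limma). CDKN2A, the locus of an MDM2 antagonist and of a kinase inhibitor, stood at 5.05 and 2.02 ppm in HS and at 7.08 and 4.10 in drug-loaded MNs, with overlap. RCHY1, another ubiquitin ligase of p53, stood at 37.8 and 31.4 ppm in HS and at 34.3 and 17.4 in drug-loaded MNs, with overlap.

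Of 51 other genes listed as p53 targets, among them SESN3 and paralogs of BTG2 and GADD45A, 27 were tested. 0 of 27 passed at an adjusted p of 0.05, 1 (SESN3) had an unadjusted p under 0.05, 6 were higher without overlap and 5 lower. Over all tested genes 7.26% were higher at an unadjusted p under 0.05, 26.6% were higher without overlap and 11.2% lower. Their median log2 fold change was 0.12, the same as that of all tested genes to this precision.

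Among the other arrest targets, 8 of 12 were tested, and 2 were lower without overlap, where 11.2% of all genes were lower, or 20.5% with median ratios. SFN (stratifin), an epithelial protein that keeps cyclin B and CDK1 out of the nucleus, stood at 5791 and 4381 ppm in HS and at 2771 and 3692 in drug-loaded MNs. Its means were 5086 ± 997 and 3232 ± 651 (SD, n = 2 per group), and the log2 fold change was -0.65 (SE 0.29, adjusted p 0.589 in limma), from -0.86 to -0.45 with 1 library left out. PLK3, a stress-responsive kinase, stood at 185 and 148 ppm in HS and at 96.8 and 131 in drug-loaded MNs, with a log2 fold change of -0.55 (SE 0.25, adjusted p 0.616 in limma). CDKN1A, SFN and PLK3 thus shared their lowest level in drug-loaded MNs replicate 1 and were lower in both treated libraries. The paralogs of BTG2 and GADD45A were not lower in both treated libraries. BTG1 stood at 397 and 437 ppm in HS and at 333 and 446 in drug-loaded MNs, BTG3 at 35.1 and 46.6 and at 39.1 and 41.2, and GADD45G at 127 and 112 and at 97.2 and 179. All 3 overlapped. BTG1 and GADD45G were also lowest in drug-loaded MNs replicate 1, but drug-loaded MNs replicate 2 was the highest of the 4 libraries for both. E2F7, a repressor of cell cycle genes, stood at 1.41 and 1.93 ppm in HS and at 5.25 and 1.39 in drug-loaded MNs, so that 1 treated library held the highest and the other the lowest level.

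Among the death targets, 5 of 15 were tested. APAF1, the scaffold of the apoptosome, stood at 13.7 and 15.1 ppm in HS and at 22.5 and 19.5 in drug-loaded MNs, with a log2 fold change of 0.51 (SE 0.25, adjusted p 0.675 in limma) that kept its direction in all 14 alternatives. SHISA5, an endoplasmic reticulum protein linked to caspase activation, stood at 3.18 and 6.09 ppm in HS and at 6.52 and 7.87 in drug-loaded MNs. FAS, the death receptor, stood at 39.9 and 34.1 ppm in HS and at 33.1 and 32.7 in drug-loaded MNs, a log2 fold change of -0.16 (adjusted p 0.901 in limma). The death targets therefore included genes on both sides, with a list median of 0.23 over 5 genes that was 0.02 under quantile normalization, 0.58 when HS replicate 2 was left out and 0.47 when drug-loaded MNs replicate 2 was.

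Among the repair and nucleotide targets, 7 of 10 were tested, 2 of them higher without overlap, a share near the 26.6% of all genes. RRM2B, the p53-induced subunit of ribonucleotide reductase, stood at 5.04 and 4.84 ppm in HS and at 5.76 and 5.90 in drug-loaded MNs. XPC, the damage sensor of nucleotide excision repair, stood at 68.5 and 74.8 ppm in HS and at 81.3 and 78.5 in drug-loaded MNs. The log2 fold changes were 0.20 and 0.16 (adjusted p 0.897 for each in limma), close to the median of all genes. POLH, a translesion polymerase, stood at 5.31 and 9.92 ppm in HS and at 9.39 and 10.1 in drug-loaded MNs, with overlap.

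Among the metabolic and secreted targets, 7 of 14 were tested. Besides SESN3, FUCA1, a lysosomal fucosidase, stood at 65.4 and 54.3 ppm in HS and at 90.4 and 81.3 in drug-loaded MNs, with a log2 fold change of 0.52 (SE 0.23, adjusted p 0.591 in limma). TIGAR, which lowers glycolytic flux, stood at 15.8 and 13.4 ppm in HS and at 10.8 and 12.7 in drug-loaded MNs, a log2 fold change of -0.29 (adjusted p 0.838 in limma).

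**Figure D3:**
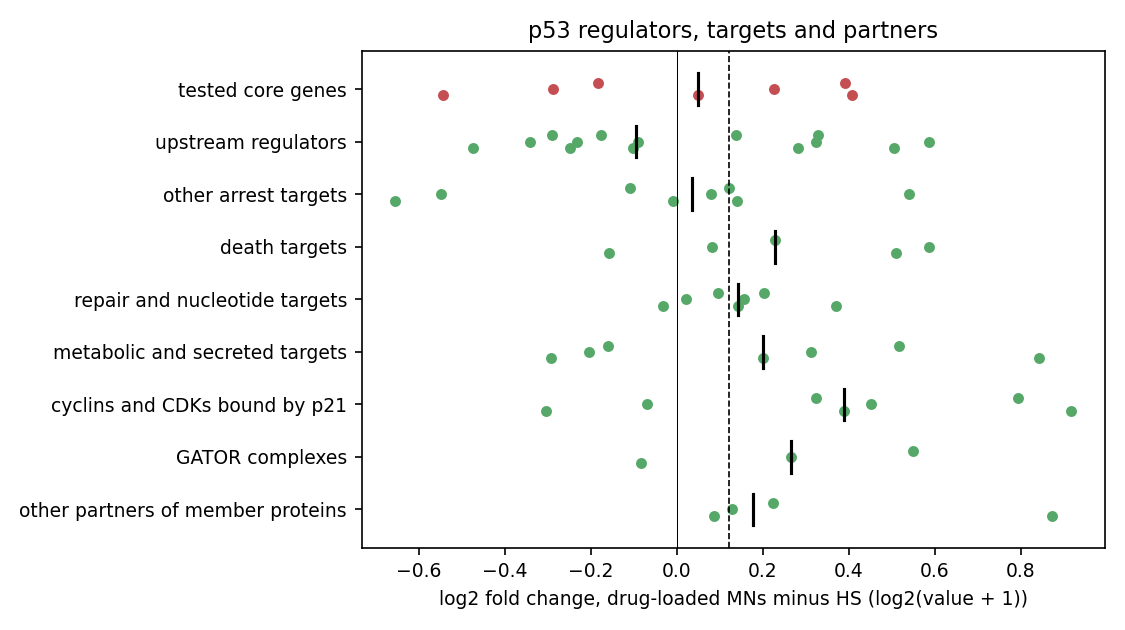
Log2 fold change (x axis, drug-loaded MNs minus HS, on log2(value + 1)) of each tested gene of the p53 list (red, 7 core genes) and of 8 lists of regulators, targets and partners (green), 1 point per gene with small vertical offsets for legibility. Short bars are list medians and the dashed line the median of all genes (0.12); each list except the partner list of 4 genes has genes on both sides of 0.

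Among the cyclins and kinases that p21 binds, CCNA2, CCNB1 and CDK1 were spread widely between replicates of both groups. 7 of 11 were tested and 0 passed. CDK6 alone did not overlap and was higher, where 26.6% of all genes were higher without overlap and 11.2% lower. CCNA2 (cyclin A) stood at 12.4 and 6.09 ppm in HS and at 32.2 and 9.21 in drug-loaded MNs. CCNB1 (cyclin B) stood at 30.3 and 9.997 ppm in HS and at 57.04 and 16.8 in drug-loaded MNs. CDK1, TOP2A and both of these cyclins were highest in drug-loaded MNs replicate 1, the library in which CDKN1A, GADD45A and SFN were lowest. Relative to the mean of the 4 libraries, drug-loaded MNs replicate 1 lay at 1.31 for CCNA2, 1.25 for CCNB1, -0.62 for CDKN1A and -0.53 for GADD45A on the log2 scale. HS replicate 1 also had high CDK1 (0.66) and yet CDKN1A at 0.13, so the opposite order did not hold across all libraries. With 4 libraries no correlation was computed. CCNA2 passed only without drug-loaded MNs replicate 2 (log2 fold change 1.77, adjusted p 0.0409 in limma), and without drug-loaded MNs replicate 1 its log2 fold change was 0.07. Of the remaining partners, 4 of 7 were tested and 0 passed. CNOT8, a deadenylase that BTG2 binds, stood at 5.91 and 5.895 ppm in HS and at 6.99 and 6.13 in drug-loaded MNs. MAP3K4, the kinase that GADD45 proteins activate, stood at 15.97 and 26.3 ppm in HS and at 26.4 and 21.99 in drug-loaded MNs, with overlap.

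**Figure D4:**
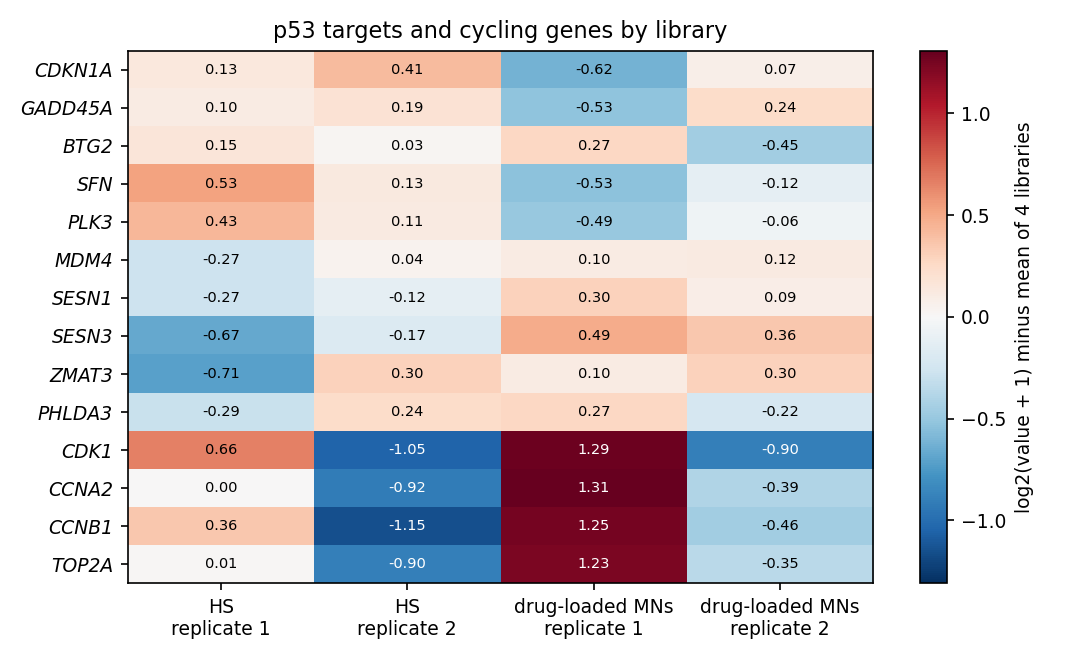
Log2(value + 1) of 10 p53 pathway genes and 4 cycling genes in each library, minus the gene's mean over the 4 libraries (colour and printed value; red above, blue below the mean). The genes were chosen after their values were seen; drug-loaded MNs replicate 1 is lowest for CDKN1A (-0.62), GADD45A and SFN and highest for CCNA2 (1.31), CCNB1, CDK1 and TOP2A.

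Cell type markers were summed in each library, and no marker in any list passed at an adjusted p of 0.05. All 6 tested fibroblast markers were higher without overlap in drug-loaded MNs, against 26.6% of all genes, and 0 of 6 passed (adjusted p 0.257 to 0.519 in limma), with a summed level of 22526 to 22996 ppm in HS and 44682 to 48616 in drug-loaded MNs. All 6 tested macrophage markers were higher without overlap too and 0 of 6 passed (adjusted p 0.264 to 0.358 in limma), with sums of 112 to 114 and 244 to 253. These lists separated the groups, as SESN1, SESN3, MDM4 and APAF1 did, and their part in those differences was not tested. Of the markers of the suprabasal keratinocyte, 0 of 4 were without overlap, with sums of 36817 and 52315 ppm in HS against 31363 and 41238 in drug-loaded MNs. The basal keratinocyte sums were 8265 and 5718 in HS against 7678 and 4040 in drug-loaded MNs. The dissociation response genes, which include FOS, JUN and EGR1, had sums of 13962 and 20926 in HS against 13624 and 14159 in drug-loaded MNs, so HS replicate 2, the library with the highest CDKN1A, was also the highest for them. The 7 tested dissociation genes all had log2 fold changes below 0, where 64.6% of all genes were above 0. With 1 library left out, those of FOS (-0.39 to 0.02), EGR1 (-0.54 to 0.37), ATF3 (-0.84 to 0.61) and MCL1 (-0.19 to 0.11) took both signs. Those of JUN, DUSP1 and NR4A1 stayed below 0. Of the 7, 1 (DUSP1) was lower without overlap, where 11.2% of all genes were. At an unadjusted p under 0.05 in limma it was 0 of 7, against 1.39% of all genes lower. The part of the dissociation genes in the CDKN1A difference was not tested. Other marker sums overlapped between the groups, namely those of endothelial cells (152 to 205 ppm over the 4 libraries), mural cells (373 to 856), mast cells (57.7 to 181), Schwann cells (84.3 to 428) and cycling cells (185 to 449). A sum can rest on 1 gene. In HS replicate 1, VWF stood at 149 of the 198 ppm of endothelial markers and S100B at 410 of the 428 of Schwann markers. Of 6 tested endothelial markers 2 were higher without overlap and 2 lower, where 26.6% and 11.2% of all genes were. Of 4 mural markers 2 were higher without overlap, of 4 mast cell markers 1, and of the Schwann and cycling markers 0. The T cell sums, from 2 low genes, were 3.64 and 3.77 ppm in HS against 10.1 and 7.82 in drug-loaded MNs, without overlap. No marker that was analysed was at 0 in any library.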

How the data were processed

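Single-cell RNA-seq libraries were prepared by the authors with the droplet method, and reads were counted as unique molecular identifiers with Cell Ranger and handled in Seurat. The submitters' processing notes name Cell Ranger 2.1.1 and mm10, a mouse build, without a role, although the gene identifiers are rabbit Ensembl ones. The deposited table is named for FPKM, but each deposited column summed to 10000 and is treated as a signal of relative expression. How cells were combined and doublets treated was not stated. The study's methods mention removing technical bias between samples, without saying whether this touched the table, and it could alter these differences. Of the low values, 18.6% to 21.7% per library lay within 0.1 steps of a whole multiple of the smallest value, so reads were not recovered and depth was unknown.

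Values were rescaled to 1000000 per library. Genes with a mean of at least 1 were kept, and log2(value + 1) was fitted across all 9348 genes with lmFit and eBayes with a trend in limma 3.58.1 under R 4.3.3. P-values are two-sided, with Benjamini-Hochberg adjustment over all genes tested. P-values measure the spread between libraries, each from 1 scar tissue, and the labels do not say whether these came from separate rabbits. The fit was tested on simulated data.

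The genes, lists and alternatives were chosen with earlier results of these data known. Named genes were all list genes, their paralogs and up to 3 genes with the smallest p per list, of which some are not reported here; RPL5, RPL11, ATR, DAXX, CDK1, TOP2A, DUSP1 and the marker genes were named after their values were seen. Genes were matched by symbol, and those without a match were not analysed here. No sequence is shown, because no sequence table was used here. The 14 alternatives concerned scaling, pseudocount (0.1 and 5), filter (none or a mean of 5), variance prior, a replicate block and leaving out each library.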

Additional observations from a re-analysis of the deposited data

How the results depend on the processing

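None of the 7 tested genes of the p53 list passed the threshold in any of the 14 alternatives. Over all genes 4 passed; with median ratios, quantile normalization, a total without abundant genes, a pseudocount of 5 or no filter 0 passed, with eBayes without trend 1, and with 1 library left out 0 to 75 (48 without drug-loaded MNs replicate 1, 75 without replicate 2 of that group, 0 without HS replicate 1). With the replicate number as a block, 241 genes passed. CDKN1A then had an adjusted p of 0.263 and an unadjusted p of 0.0213 in limma, against an unadjusted 0.1005 without the block. The libraries share only a number (deviations of same-numbered libraries correlated at 0.222 across genes, from 2 pairs). The block changed no call of a p53 list gene at the adjusted threshold. The number of genes at an unadjusted p under 0.05 (809) ranged from 507 to 1409 with 1 library left out. The log2 fold changes of all genes had a median of -0.011 with median ratios and -0.020 with quantile normalization, and that of the p53 list (0.05) went from -0.12 to 0.31 with 1 library left out, the higher value being that without HS replicate 2. The number of p53 list genes whose groups did not overlap (3) was 2 with median ratios and 1 with quantile normalization, alternatives chosen after seeing the data. Over all genes 26.6% were higher and 11.2% lower without overlap. These shares were 18.4% and 20.5% with median ratios, and 16.7% and 20.8% with quantile normalization. The cause was not tested.

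Signs turned for PHLDA3 with median ratios (-0.064) and quantile normalization (-0.24), for GADD45G with median ratios (-0.0047), and for CNOT8 (-0.11) and RRM2B (-0.047) under quantile normalization. With 1 library left out, log2 fold changes ranged from -0.67 to 0.10 for GADD45A, -0.54 to 0.18 for BTG2, -0.10 to 0.91 for ZMAT3, -0.22 to 0.31 for PHLDA3, -0.32 to 0.10 for BTG1, -0.21 to 0.19 for BTG3, -0.062 to 1.65 for CCNB1, -0.15 to 1.23 for E2F7, -0.30 to 0.57 for GADD45G, -0.12 to 0.57 for MAP3K4, -0.34 to 0.18 for NPRL2, -0.026 to 0.77 for POLH and -0.071 to 1.17 for WDR59. The lone library of a group is then assumed to vary like the other group. The MDM4 to MDM2 ratio was not run, as MDM2 was not analysed here, nor was the SESN1 to SESN2 ratio under quantile normalization, as SESN2 was under the filter. With a minimum mean of 5 PHLDA3 was filtered out. The limits that depth sets could not be given, since depth was unknown.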
